A study of Homo sapiens with 9 samples.

Results

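The enzymes described here are those of serine synthesis, of the folate-bound one-carbon cycle and of transsulfuration, in Y79 cells, an established human retinoblastoma line grown in suspension in RPMI medium. The 10 genes were PHGDH, PSAT1, PSPH, SHMT1, SHMT2, MTHFD1, MTHFD2, ALDH1L2, CBS and CTH. Every probe set annotated to exactly 1 of these symbols was taken, which gave 30 of the 44988 probe sets with 1 symbol. They measured 9 of the 18132 genes that had a probe set of their own, because every CBS probe set was also annotated to LOC102724560. CTH, PHGDH and PSAT1 had been seen to be higher with bare particles, so the GNPs against Control values of all members are given as a description with no test.

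The series held 9 Affymetrix expression arrays in 3 groups of 3. GNPs-HDM2 cells received gold nanoparticles that carried an HDM2 (human double minute 2) peptide conjugate, GNPs cells received gold nanoparticles without the peptide, and Control cells were untreated. HDM2 is the ubiquitin ligase that restrains p53, and the series title describes the conjugate as an inhibitor of their interaction. The cell line field names Y79 for all groups, while the source names of the treated samples write Y97. No dose, exposure time or peptide sequence is stated, nor whether the 3 arrays of a group came from separate cultures. The p-values therefore reflect the spread among these arrays alone, and that spread may be technical.

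Serine synthesis branches off glycolysis at 3-phosphoglycerate. PHGDH oxidises it, PSAT1 adds the amino group and PSPH removes the phosphate to give serine. The serine hydroxymethyltransferases, SHMT1 in the cytosol and SHMT2 in mitochondria, pass a carbon of serine to tetrahydrofolate, and the folate enzymes MTHFD1 (cytosol), MTHFD2 and ALDH1L2 (both mitochondria) interconvert the folate-bound carbon units used for purine and thymidylate synthesis and for making NADPH. CBS and CTH move sulfur from homocysteine through cystathionine to cysteine, which feeds glutathione. Several of these genes are known targets of the stress transcription factor ATF4 in mammalian cells. In the retina, serine synthesis is best known from Mueller glia.

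Values are on the log2 scale against a baseline that each probe set has of its own, so a value of 0 is the baseline and not an absence of RNA, and levels of different genes cannot be compared. The stored step of the numbers showed whether a baseline lay at log2 under 4 (dim, 13829 probe sets), 4 to 8 (middle, 23729) or 8 to 16 (bright, 9891). Another 1844 probe sets could not be classed. Of the members' 30 probe sets, 15 were bright, 10 middle, 3 dim and 2 unclassed. A gene is the mean of its own probe sets. Of 13 genes listed for retinoblastoma and cones, 6 had a bright probe set (CRX, MYCN, OTX2, PDE6H, RB1 and RBP3) and none was dim only. The bright RB1 probe set is not taken as a sign of the tumour. None of 7 fibroblast or 5 pigment epithelium markers was bright, but 6 and 5 of them had a middle probe set as their highest. The same was true of 7 of the 13 retinoblastoma and cone genes, so these classes alone do not tell cell types apart. Of 5 measured blood markers, 4 were dim only (CD14, CD3D, LYZ and PTPRC). The Mueller glia markers GLUL and VIM were bright and SLC1A3 was dim only.

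The GNPs-HDM2 arrays stood apart from all others in a way that followed level. Between GNPs-HDM2 and Control, dim probe sets had a median change of 0.49, middle ones 0.16 and bright ones -1.03, while between GNPs and Control it was -0.09, -0.04 and 0.05. Hybridization control transcripts, added in fixed amounts, averaged 1.68 ± 0.30 on GNPs-HDM2 arrays and -0.38 ± 0.05 on Control arrays (SD, n = 3 each; exact permutation p = 0.1, 2-sided, the smallest that 3 against 3 arrays allow). Poly-A control transcripts lay 1.72 higher and background probe sets 0.52 higher on GNPs-HDM2 than on Control arrays (exact permutation p = 0.1 for each). The median SD within a group was 0.47 for GNPs-HDM2, 0.12 for GNPs and 0.18 for Control arrays. GNPs-HDM2 replicates 1 and 2 had the larger shift, with bright medians of -1.14 and -1.59 against -0.21 on replicate 3. The GNPs-HDM2 change of each member gene, and the counts over members, are therefore given as deposited and after every array was centred on its median within each level class (called level centring). What part this shift had in the members' changes was not tested. In bulk RNA, fewer cells of a kind and less RNA per cell cannot be told apart.

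**Figure D1:**
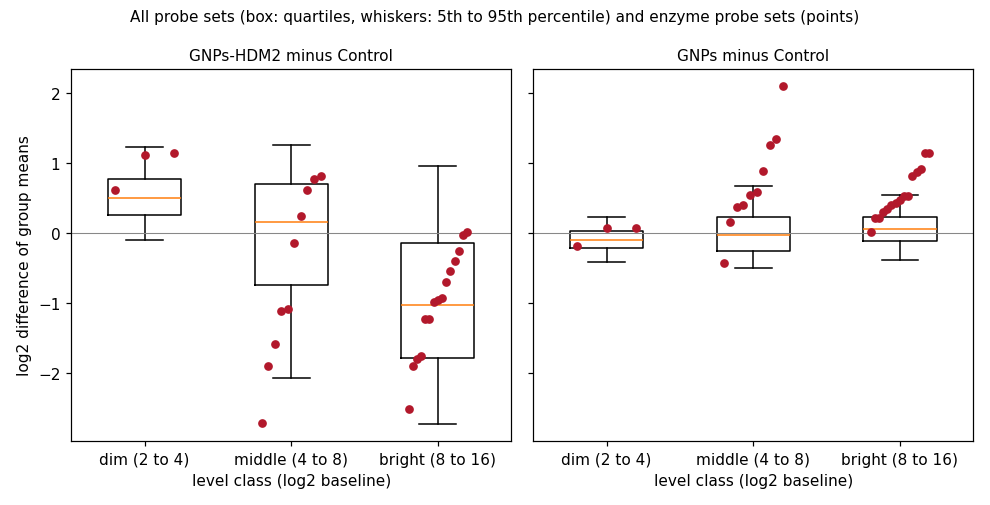
Log2 difference of group means for all probe sets by level class (boxes are quartiles, whiskers the 5th to 95th percentile, the line the median) with the members' own probe sets as points, for GNPs-HDM2 minus Control on the left and GNPs minus Control on the right. On the left the box medians run 0.49, 0.16 and -1.03 from dim to bright, and on the right they lie between -0.09 and 0.05 while most middle and bright points sit above the box. The dim class, labelled 2 to 4, could also take in baselines under 2.

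With bare particles, 7 of the 9 enzyme genes had all 3 GNPs arrays above all 3 Control arrays, which 12.4% of all genes showed, and none had them all below, which 21.5% showed. Of the members' 30 probe sets 22 were of the first kind, beside 11.5% of all probe sets. The members were picked with this contrast in view, so nothing is read from these shares. CTH, which splits cystathionine into cysteine, had the widest gap. It lay at 0.20, -0.18 and 0.51 on GNPs arrays and at -1.59, -1.57 and -2.62 on Control arrays, a difference of 2.10 with a standard error of 0.31 from the fit, or 4.30-fold. The GNPs arrays were clear of the Control arrays by more than a log2 unit, and Control replicate 3 was the lowest array. CTH had 1 probe set, of the middle class, so no second probe set bears on this value.

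The 3 serine synthesis genes lay higher on GNPs arrays by 0.82 to 0.84 as deposited. PHGDH lay at 0.08, 0 and 0.22 on GNPs arrays and at -0.61, -0.70 and -0.85 on Control arrays, a difference of 0.82 (standard error 0.25). The standard errors are from the fit of all 9 arrays, so they include the spread of the GNPs-HDM2 group. For PHGDH the SD was 0.56 on GNPs-HDM2, 0.11 on GNPs and 0.12 on Control arrays. PSAT1 lay at 0.23, 0.27 and 0.38 on GNPs arrays and at -0.65, -0.51 and -0.50 on Control arrays, a difference of 0.84 (standard error 0.26). PSPH lay at 0.42, 0.35 and 0.52 on GNPs arrays and at -0.64, -0.24 and -0.32 on Control arrays, a difference of 0.83 (standard error 0.17). In all of these genes the groups were separate, and the folds were 1.77 for PHGDH, 1.79 for PSAT1 and 1.78 for PSPH. The PSPH mean held 2 probe sets at 1.08 and 1.34 and a dim one at 0.08. Of the 8 PSAT1 probe sets, 7 had GNPs arrays all above Control arrays, and the differences of all 8 ran from 0.15 to 1.26. Quantile normalization put the gene differences at 1.64 for PHGDH, 1.58 for PSAT1 and 1.43 for PSPH. That step gives every array the average distribution of all 9 arrays, GNPs-HDM2 arrays included. Its part in these larger values was not tested. Without dim probe sets PSPH stood at 1.21.

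The mitochondrial enzymes SHMT2 and MTHFD2 lay higher on GNPs arrays by less. SHMT2 averaged 0.39 ± 0.15 on GNPs arrays and -0.09 ± 0.10 on Control arrays (SD, n = 3 each), a difference of 0.49. MTHFD2, which oxidises methylene-tetrahydrofolate, averaged 0.22 ± 0.02 on GNPs arrays and -0.08 ± 0.12 on Control arrays, a difference of 0.29. All 4 SHMT2 probe sets and 4 of 5 MTHFD2 probe sets had GNPs arrays all above Control arrays, as 16.4% of all bright probe sets did. Under quantile normalization the difference was 0.92 for SHMT2 and 0.69 for MTHFD2. SHMT1, the cytosolic partner of SHMT2, differed by 0.29, with 4 probe sets between 0.37 and 0.58 and the other one, the only one whose name has no suffix letter, at -0.43.

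MTHFD1 and ALDH1L2 overlapped between the groups. MTHFD1, the cytosolic enzyme of 3 activities in purine and thymidylate supply, lay at 0.30, 0.35 and 0.24 on GNPs arrays and at 0.06, 0.28 and 0.51 on Control arrays. ALDH1L2, which oxidises formyl-tetrahydrofolate in mitochondria, differed by -0.06 (standard error 0.16), and both of its probe sets were dim. Over all 9 genes the median difference was 0.49, beside -0.06 for all genes. Level centring left the CTH difference at 2.10 and the median of the members at 0.44.

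**Figure D2:**
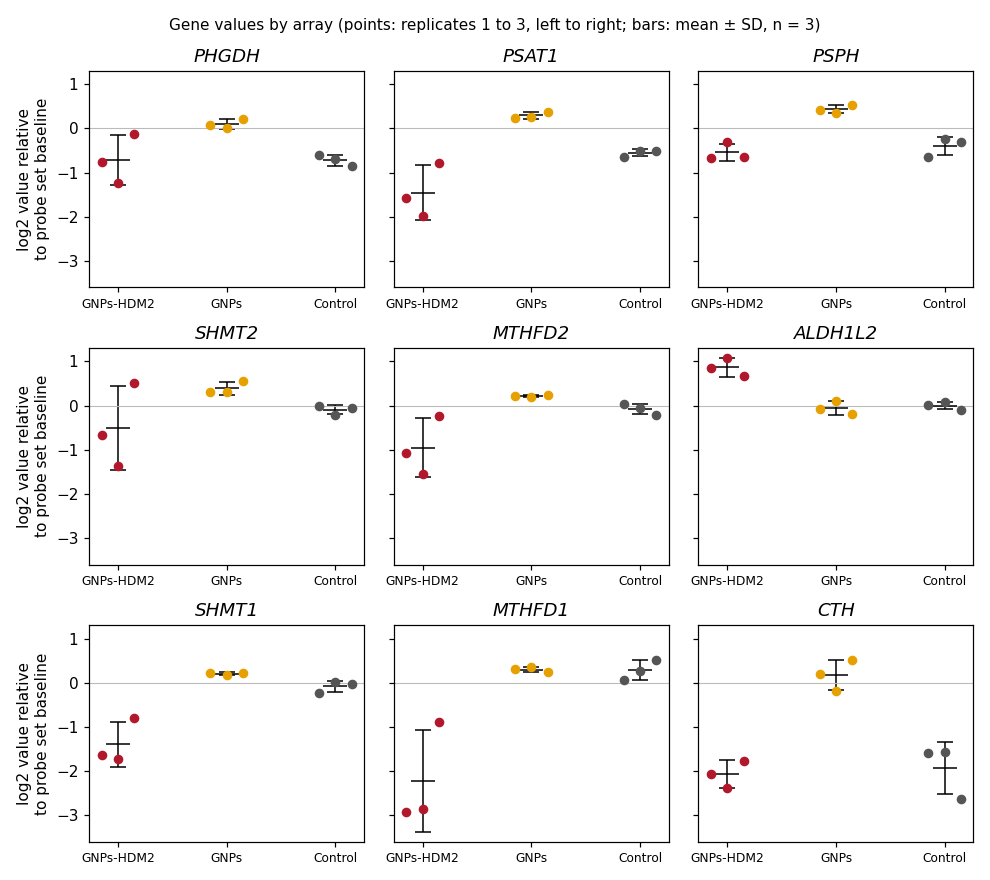
Gene values (log2 relative to the probe set baseline, vertical axis) of the 9 measured enzymes on each array of GNPs-HDM2, GNPs and Control, with points for replicates 1 to 3 from left to right and bars for the mean ± SD (n = 3). CTH, PHGDH, PSAT1 and PSPH have all GNPs points above all Control points, and MTHFD1 has its GNPs-HDM2 points between -2.91 and -0.90.

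Promoter windows are shown for the genes picked for their higher values with bare particles, and for MTHFD1, whose groups overlapped there and whose change with the conjugate was the largest among the members. RefSeq windows of GRCh38.p14, from 250 bases before to 50 after the start of transcription, were at hand for 7 of the 10 genes (not PSPH, SHMT2 or ALDH1L2). Capitals mark the CCAAT box (letters CCAAT, or ATTGG on the other strand) and the E-box (CACGTG). The windows are chr1:70411018-70411317 for CTH, chr1:119711684-119711983 for PHGDH, chr9:78296875-78297174 for PSAT1 and chr14:64388103-64388402 for MTHFD1, all on the plus strand.
CTH: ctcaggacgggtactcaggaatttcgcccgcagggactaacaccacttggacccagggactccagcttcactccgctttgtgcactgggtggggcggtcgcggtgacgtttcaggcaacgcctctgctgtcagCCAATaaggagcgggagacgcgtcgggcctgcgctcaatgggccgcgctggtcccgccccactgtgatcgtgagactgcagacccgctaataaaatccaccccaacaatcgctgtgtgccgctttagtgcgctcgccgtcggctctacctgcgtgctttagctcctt
PHGDH: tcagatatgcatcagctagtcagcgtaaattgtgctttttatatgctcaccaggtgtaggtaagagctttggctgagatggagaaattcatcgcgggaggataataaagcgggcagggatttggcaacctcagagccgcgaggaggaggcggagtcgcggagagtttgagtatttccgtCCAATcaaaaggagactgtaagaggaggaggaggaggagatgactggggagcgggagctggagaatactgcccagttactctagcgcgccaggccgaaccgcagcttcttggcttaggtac
PSAT1: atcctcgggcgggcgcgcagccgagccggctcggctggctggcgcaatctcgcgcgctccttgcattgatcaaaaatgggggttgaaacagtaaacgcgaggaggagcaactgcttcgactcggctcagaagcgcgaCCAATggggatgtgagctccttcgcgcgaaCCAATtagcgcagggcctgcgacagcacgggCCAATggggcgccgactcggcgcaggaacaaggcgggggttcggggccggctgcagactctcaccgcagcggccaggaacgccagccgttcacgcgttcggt
MTHFD1: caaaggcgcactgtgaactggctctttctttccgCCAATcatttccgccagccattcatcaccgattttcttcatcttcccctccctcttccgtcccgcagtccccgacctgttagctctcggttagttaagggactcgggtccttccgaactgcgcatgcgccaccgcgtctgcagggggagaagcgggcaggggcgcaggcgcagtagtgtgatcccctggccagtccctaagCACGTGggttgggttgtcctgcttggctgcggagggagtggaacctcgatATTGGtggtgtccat

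All 7 genes had a CCAAT box in at least 1 window, and 34.6% of 35097 windows of this length had one. The first count is per gene and the share per window, and CBS had more than 1 window, so they are not like measures. PSAT1 had 3, beginning at bases -113, -83 and -52 from the start, and 3.25% of windows had at least 3. CTH and PHGDH had 1 each, MTHFD1, MTHFD2 and SHMT1 had 2 each, and the E-box of MTHFD1, a motif that MYC family factors bind, was in 7.25% of windows. The core of the element bound by ATF4 with its partners (TGATGNAA, both strands) was in none of the 7 genes' windows and in 3.62% of all windows, which says only that these letters are not in these stretches. The core of the antioxidant response element (TGACNNNGC), which NRF2 binds, was in the MTHFD2 window and 1 CBS window, beside 13.35% of all windows.

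With the conjugate, 4 of the 9 enzyme genes were lower and 1 was higher than in untreated cells, and 4 did not pass (limma, Benjamini-Hochberg adjusted p under 0.05 over all genes). Among all genes 25.1% were lower and 33.1% higher, so calls of this kind were common. The median of the members was -0.41, beside 0.25 for all genes, and after level centring -0.25, beside 0.07. With level centring 3 members were called higher and 4 lower, beside 23.9% and 22.8% of all genes. By probe set, 5 of 30 rose and 14 fell, beside 24.9% and 23.7% of all probe sets. Of the 15 bright ones 8 fell, beside 55.2% of all bright probe sets. After level centring 7 of the 30 were called higher and 10 lower, beside 19.5% and 21% of all probe sets. The same Control arrays entered the comparison by which CTH, PHGDH and PSAT1 were picked. Low Control values favoured that choice, so tests of these genes against Control lean toward rises, and the counts above include them. GNPs-HDM2 replicate 3 was also set alone against Control, a comparison chosen after seeing the data. The lone array is assumed there to vary like the other groups, so only its changes are of use. Without GNPs-HDM2 replicate 1, Control replicate 2 or Control replicate 3 the number of lower members was 2. Calls over all genes, 10566 as deposited, also fell in these fits, to 7259, 7064 and 6524.

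The deepest fall was in MTHFD1. It lay at -2.91, -2.86 and -0.90 on GNPs-HDM2 arrays and at 0.06, 0.28 and 0.51 on Control arrays. The groups were separate, and replicate 3 was the mildest of the GNPs-HDM2 arrays. The change was -2.50 with a standard error of 0.45, a 5.67-fold fall (limma adjusted p = 0.00324), and -1.51 after level centring (adjusted p = 0.00204). MTHFD1 stayed called lower in all 19 alternatives that measured it, from -3.17 to -1.18. It had 1 probe set, a bright one, and 55.2% of bright probe sets were called lower.

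SHMT1 was the other cytosolic folate enzyme and also fell. It lay at -1.64, -1.73 and -0.81 on GNPs-HDM2 arrays and at -0.23, 0.01 and -0.02 on Control arrays, with no overlap. The change was -1.31 with a standard error of 0.23 (limma adjusted p = 0.0031) and -1.44 after level centring (adjusted p = 0.00257). Of its 5 probe sets, 4 fell (-2.24 to -1.09) and the one with no suffix stood at 0.24 (adjusted p = 0.351). Quantile normalization ended the call of the gene (-0.50, adjusted p = 0.0864).

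PSAT1 fell as a gene mean, but its probe sets were split. The mean lay at -1.59, -1.99 and -0.78 on GNPs-HDM2 arrays and at -0.65, -0.51 and -0.50 on Control arrays, a change of -0.90 with a standard error of 0.26 (limma adjusted p = 0.0174). Of the 8 probe sets 5 fell, with changes of -1.90 to -1.23 for the 4 bright ones and -2.71 for a middle one. The other 3, all of the middle class, rose by 0.62 to 0.81. After level centring the mean changed by -0.46 (adjusted p = 0.0395), with 4 probe sets called lower and 2 higher, and under quantile normalization the direction turned to 0.44 (adjusted p = 0.101). The call was lost without GNPs-HDM2 replicate 1 (-0.83), Control replicate 2 (-0.88) or Control replicate 3 (-0.88), at adjusted p = 0.058, 0.0532 and 0.055. With GNPs-HDM2 replicate 3 alone the change was -0.23 (adjusted p = 0.21), and a fit of the compared groups only gave adjusted p = 0.0517.

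The other serine synthesis genes did not pass as deposited. PHGDH lay at -0.76, -1.24 and -0.12 on GNPs-HDM2 arrays and at -0.61, -0.70 and -0.85 on Control arrays, a change of 0.01 with a standard error of 0.25 (limma adjusted p = 0.961). GNPs-HDM2 replicate 3 lay above all Control arrays and replicate 2 below them. Its 1 probe set is bright, and after level centring it stood 1.004 higher with a standard error of 0.14 (adjusted p = 0.0011). With replicate 3 alone it stood 0.60 higher and under quantile normalization 1.09 higher (adjusted p = 0.00563). PHGDH was picked on these Control arrays, so low values there were part of the choice. PSPH changed by -0.14 (adjusted p = 0.468). Its probe sets of the middle class (-1.12, adjusted p = 0.0097) and of the dim class (1.14, adjusted p = 0.0152) went opposite ways, and the gene was called lower after level centring (-0.41, adjusted p = 0.0416) and without dim probe sets (-0.79, adjusted p = 0.0128).

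**Figure D3:**
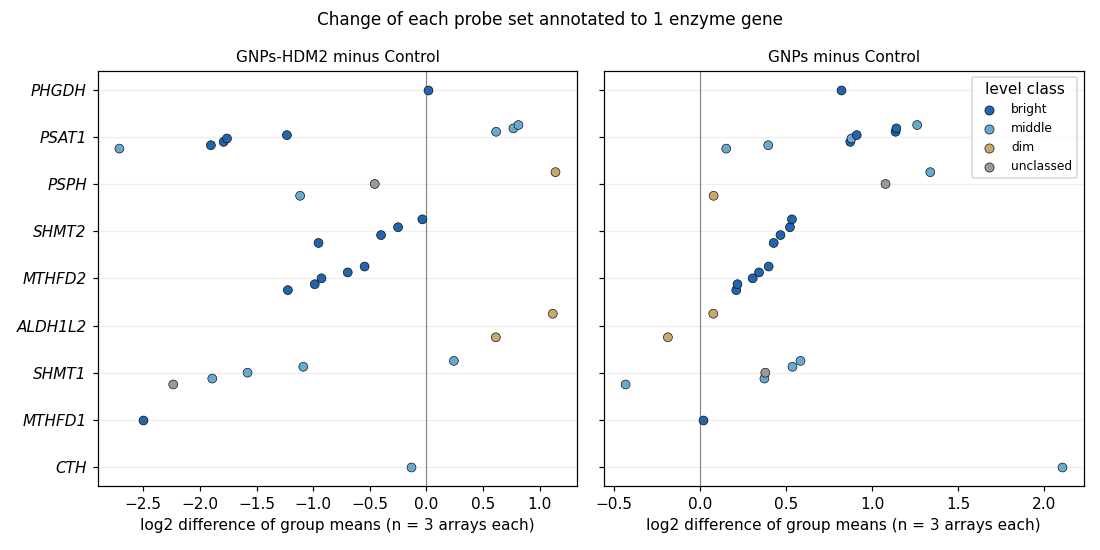
Log2 difference of group means (horizontal axis) of each of the members' 30 probe sets, by gene and coloured by level class, for GNPs-HDM2 minus Control on the left and GNPs minus Control on the right. On the left PSAT1 spans -2.71 to 0.81 and PSPH -1.12 to 1.14, and on the right all PSAT1 points lie between 0.15 and 1.26.

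Among the mitochondrial enzymes, MTHFD2 was lower and ALDH1L2 higher with the conjugate. MTHFD2 lay at -1.07, -1.55 and -0.23 on GNPs-HDM2 arrays and at 0.03, -0.06 and -0.20 on Control arrays. Replicate 3 was barely below the lowest Control array. The change was -0.88 with a standard error of 0.28 (limma adjusted p = 0.025), it was 0.115 after level centring (adjusted p = 0.447), and of its 5 probe sets, all bright, 3 were called lower as deposited and none after level centring. Leaving out GNPs-HDM2 replicate 1 (-0.81) or 2 (-0.57), or Control replicate 1 (-0.82), 2 (-0.86) or 3 (-0.94), also ended the call, at adjusted p = 0.0758, 0.0667, 0.067, 0.0666 and 0.0539. So did quantile normalization (-0.15, adjusted p = 0.619), replicate 3 alone (-0.15, adjusted p = 0.409) and a fit of the compared groups only (-0.88, adjusted p = 0.0657).

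ALDH1L2 lay at 0.85, 1.08 and 0.66 on GNPs-HDM2 arrays and at 0.01, 0.08 and -0.09 on Control arrays, with a clear gap. The rise was 0.86 with a standard error of 0.16 (limma adjusted p = 0.0039) and 0.39 after level centring (adjusted p = 0.0331). Of its 2 dim probe sets 1 passed (1.12, adjusted p = 0.00305) and the other did not (0.61, adjusted p = 0.0645), in a class in which 32.7% of probe sets were called higher and 0.557% lower. Quantile normalization ended the call (0.48, adjusted p = 0.169).

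SHMT2 and CTH did not pass. SHMT2 lay at -0.67, -1.36 and 0.51 on GNPs-HDM2 arrays, on both sides of the Control arrays at -0.01, -0.21 and -0.06, a change of -0.41 with a standard error of 0.38 (limma adjusted p = 0.351). All 4 probe sets were bright. After level centring it stood 0.58 higher (adjusted p = 0.0149) and with GNPs-HDM2 replicate 3 alone 0.61 higher (adjusted p = 0.0233), while without that replicate it changed by -0.92 (adjusted p = 0.00211). CTH lay at -2.06, -2.38 and -1.76 on GNPs-HDM2 arrays and at -1.59, -1.57 and -2.62 on Control arrays. The groups overlapped, and the change was -0.14 with a standard error of 0.31 (adjusted p = 0.694), or -0.25 after level centring (adjusted p = 0.536). Quantile normalization, which forces the same spread on every array, put it at 1.40 (adjusted p = 0.0166). CTH too was picked on these Control arrays.

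**Figure D4:**
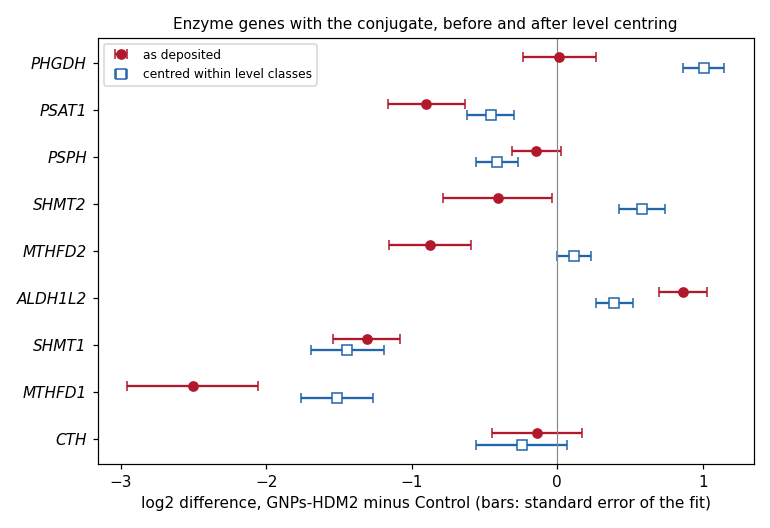
Log2 change of the 9 enzyme genes in GNPs-HDM2 minus Control (horizontal axis, bars are standard errors of the fit) as deposited and after centring within level classes. MTHFD1 and SHMT1 lie below 0 by both, PHGDH goes to 1.004 and SHMT2 to 0.58, and CTH stays near 0.

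The conjugate was also set against the bare particle. CTH, PHGDH and PSAT1 had been picked on these GNPs arrays and are given with no test. CTH averaged -2.07 ± 0.31 on GNPs-HDM2 arrays and 0.18 ± 0.34 on GNPs arrays (SD, n = 3 each), a difference of -2.24. PSAT1 differed by -1.74 and PHGDH by -0.81, and in all of these genes every GNPs-HDM2 array lay below every GNPs array. Level centring left CTH at -2.35 and PSAT1 at -1.28 and turned PHGDH to 0.23.

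The other 6 genes belong to a list picked with GNPs against Control in view, and their tests use the same GNPs arrays. Of these 6 genes, 4 were lower and 1 higher with the conjugate than with the bare particle, beside 29.1% lower and 43.2% higher among all genes. After level centring 3 were lower and 1 higher, beside 27.3% and 31.9%. Of their 20 probe sets 13 fell and 4 rose, beside 28.3% and 36.3% of all probe sets. After level centring 8 were called lower and 2 higher, beside 26.1% and 26.9%. PSPH lay at -0.67, -0.32 and -0.65 on GNPs-HDM2 arrays and at 0.42, 0.35 and 0.52 on GNPs arrays, so the groups were far apart. It changed by -0.97 with a standard error of 0.17 (limma adjusted p = 0.00149), by -1.27 after level centring (adjusted p = 0.00031), and was called lower in all 19 alternatives that measured it. Those alternatives share the GNPs arrays, on which PSPH lay 0.83 higher than on Control arrays. Against Control the conjugate changed PSPH by only -0.14 (adjusted p = 0.468). Its dim probe set again went the other way (1.06, adjusted p = 0.014), and its other probe sets changed by -2.45 and -1.53. Without dim probe sets the gene changed by -1.99 (adjusted p = 0.000262). SHMT1 changed by -1.60 with a standard error of 0.23 (adjusted p = 0.000836) and MTHFD1 by -2.52 with a standard error of 0.45 (adjusted p = 0.0016). The SHMT1 probe set with no suffix went the other way (0.68, adjusted p = 0.0203). By level centring the genes stood at -1.73 and -1.48 (adjusted p = 0.000703 for SHMT1 and 0.00118 for MTHFD1).

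MTHFD2 fell by 1.17 with a standard error of 0.28 (limma adjusted p = 0.0053), and level centring ended that call (-0.13, adjusted p = 0.363). ALDH1L2 rose by 0.92 with a standard error of 0.16 (adjusted p = 0.0016) and by 0.37 after level centring (adjusted p = 0.0327), and quantile normalization ended the call (0.53, adjusted p = 0.0586). Of its 2 dim probe sets, 2 were called higher as deposited and 0 after level centring. With GNPs-HDM2 replicate 3 alone the MTHFD2 change was -0.45 (adjusted p = 0.0247). SHMT2 changed by -0.90 with a standard error of 0.38 and did not pass (adjusted p = 0.0529), while level centring turned it to 0.14 (adjusted p = 0.455). Without GNPs-HDM2 replicate 3 SHMT2 passed as lower (-1.40, adjusted p = 0.000126), as it did under quantile normalization (-0.73, adjusted p = 0.0304) and median centring (-1.07, adjusted p = 0.0476).

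No CBS probe set was annotated to CBS alone. On the 6 probe sets that CBS shares with LOC102724560, the difference between GNPs and Control arrays ran from 0.01 to 0.63, and 1 of them had all GNPs arrays above all Control arrays. Between GNPs-HDM2 and Control the same probe sets ran from -1.16 to 1.19, with 1 all above and none all below. These values are a description and were not counted among the members, because of the shared annotation. CBS lies at chr21:43053191-43076873 in GRCh38.p14.

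Of 51 other genes of serine, glycine, folate, methionine and glutathione metabolism and their regulators, 46 were measured. With the conjugate 22 fell, 5 rose and 19 did not pass against Control cells, beside the 25.1% lower and 33.1% higher among all genes. The median of the list was -0.34, beside 0.25 for all genes, and -0.32 after level centring, beside 0.07. With level centring 22 were called lower and 8 higher, beside 22.8% and 23.9% of all genes. MAT2B, the regulatory subunit of the enzyme that makes S-adenosylmethionine, changed by -2.42 with a standard error of 0.29 (limma adjusted p = 0.000901). SLC25A32, which carries folate into mitochondria, changed by -1.79 with a standard error of 0.22 (adjusted p = 0.00107). The rises of smallest adjusted p were the cystine transporter SLC7A11 (0.92, standard error 0.19, adjusted p = 0.00536) and ALDH1L1, the cytosolic counterpart of ALDH1L2 (0.74, standard error 0.18, adjusted p = 0.00957). Between GNPs and Control, with no test, SLC7A11 differed by 1.71 and ALDH1L1 by -0.12. Against the bare particle the conjugate changed SLC7A11 by -0.79 (adjusted p = 0.00573) and ALDH1L1 by 0.86 (adjusted p = 0.00321). After level centring these 4 genes stood at -1.80 (MAT2B), -1.90 (SLC25A32), 0.77 (SLC7A11) and 0.45 (ALDH1L1), all called (adjusted p = 0.000301, 0.000711, 0.00634 and 0.0366). Against the bare particle 28 of the 46 were lower and 6 higher, beside 29.1% lower and 43.2% higher among all genes, and after level centring 27 were lower and 7 higher, beside 27.3% and 31.9%. Between GNPs and Control, given with no test, 14 had all GNPs arrays above and 3 all below, beside 12.4% and 21.5% of all genes, and the list median was 0.20, beside -0.06 for all genes.

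The 5 other genes whose values over the 9 arrays ran most like the mean of CTH, PHGDH and PSAT1 were ASNS (Pearson r = 0.98), DDIT4 (0.96), DNASE2 (0.96), SKA1 (0.95) and GSTA4 (0.95), out of 13820 genes with an SD of at least 0.3. The arrays share a line and the GNPs-HDM2 shift, so these values are a description. ASNS, the asparagine synthetase, lay at -1.59, -1.85 and -0.34 on GNPs-HDM2 arrays, at 0.43, 0.24 and 0.43 on GNPs arrays and at -0.69, -0.72 and -1.28 on Control arrays. All 5 lay highest on the GNPs arrays, by 0.63 (SKA1) to 1.66 (DDIT4) over Control. Against the same mean the members outside it had r of 0.83 for PSPH, 0.83 for MTHFD2, 0.81 for SHMT2, 0.78 for SHMT1, 0.67 for MTHFD1 and -0.70 for ALDH1L2.

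**Figure D5:**
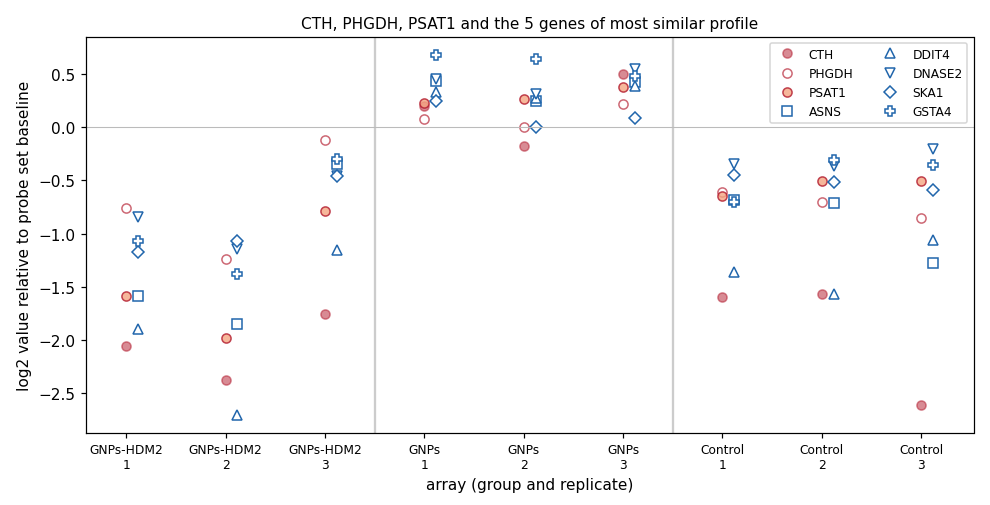
Log2 values relative to the probe set baseline (vertical axis) of CTH, PHGDH and PSAT1 and of the 5 genes of most similar profile on each array (horizontal axis). On the GNPs arrays all 8 genes lie between -0.18 and 0.68, and on the GNPs-HDM2 and Control arrays all lie below 0.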

How the data were processed

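Per the labels, biotin-labelled cRNA was made from total RNA and hybridized to Affymetrix arrays. The authors deposited 1 table of log2 values; summarization, background correction, normalization and the baseline are not given in the sources used here. Log base 2 was taken from the size of the values without other proof. An exact 0 on at least 1 array in 59.7% of probe sets showed a baseline per probe set. Level classes were read from the binary step of the stored numbers (95.6% right of those classed on simulated numbers). The table held 49395 probe sets, of which the 102 array controls stayed out of all tests. Among the 49293 others, 44988 had 1 gene symbol in GEO's platform annotation, 1832 several and 2473 none. Depth in the sense of read counts does not apply, and the number of arrays limits precision.

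Tests on gene means used limma 3.58.1 in R 4.3.3 (lmFit, eBayes, 2-sided, all 9 arrays in one fit, Benjamini-Hochberg over 18132 genes, or over all probe sets for a probe set), after a test on simulated data. Permutation tests used scipy 1.17.1. The fit takes equal spread in all groups, which did not hold. Members, lists and tests were chosen with earlier results of these data known. All 10 members were named. Of the pathway list, the 2 rising and 2 falling genes of smallest adjusted p were named, and so were the 5 genes of most similar profile. The deviations of same-numbered GNPs-HDM2 and Control arrays correlated at 0.16, 0.11 and 0.29 for replicates 1 to 3. All are over 0.1, which makes the numbers possible pairs from the data and not from the labels. For GNPs-HDM2 replicate 2, though, a Control array of another number correlated more. The printed tests carry no replicate block, and a fit with it is among the alternatives. Alternatives were quantile normalization, median centring, level centring, leaving out each array, a replicate block, the compared groups only, trend and robust settings, array weights per group, the median of probe sets, unsuffixed probe sets and no dim probe sets.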

Additional observations from a re-analysis of the deposited data

Results flagged for a closer look

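Signal outside the members' own probe sets lay above the Control level in 6 cases. A probe set shared by PHGDH and MZT2B had all GNPs arrays above all Control arrays, by 0.22. A probe set shared by CBS and LOC102724560 lay higher on all GNPs-HDM2 arrays than on all Control arrays, by 1.19, and on all GNPs arrays, by 0.63. Among array controls, the hybridization controls lay 2.06 higher, the poly-A controls 1.72 higher and the background probe sets 0.52 higher on GNPs-HDM2 than on Control arrays. The groups of 3 are too small for a check of single outlying arrays.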

How the results depend on the processing

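As deposited, GNPs-HDM2 against Control called 1 member higher and 4 lower, 19 member probe sets, 27 pathway genes and 10566 genes. GNPs-HDM2 against GNPs called 1 of the 6 tested members higher and 4 lower, 17 of their probe sets, 34 pathway genes and 13114 genes. Scaling moved the median change of all genes against Control, which was 0.25 as deposited, to 0.10 (quantile normalization), 0.08 (median centring) and 0.07 (level centring). The split of calls was 6006 higher and 4560 lower as deposited, 572 and 1355 after quantile normalization, 4154 and 5054 after median centring, and 4326 and 4138 after level centring. Against GNPs it was 7833 higher and 5281 lower, then 5060 and 4197, 6423 and 5875, and 5781 and 4946.

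Quantile normalization gave 2 members higher and 1 lower against Control, with 5 member probe sets, 14 pathway genes and 1927 genes called, and no member higher (0) against GNPs. It turned PSAT1 to 0.44, PSPH to 0.50, SHMT2 to 0.19 and CTH to 1.40 against Control. By construction it gives every array the same distribution, the average over all arrays, and it put CTH 2.64 and PHGDH 1.64 higher on GNPs than on Control arrays. Median centring turned PHGDH to -0.15. Level centring gave 3 members higher against Control and 10 probe sets called against GNPs, and it turned SHMT2 to 0.58 and MTHFD2 to 0.115 against Control and SHMT2 to 0.14 against GNPs. With the compared groups only, 2 members were lower and 6439 genes called against Control, and with array weights 6699 genes were called. For these last settings the cause was not tested.

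Unsuffixed probe sets measured only SHMT1 among the members, so member counts were not run there. They put SHMT1 at 0.24 against Control and at 0.68 against GNPs (adjusted p = 0.0157). They called 4264 genes and 8 pathway genes against Control, and 5790 and 12 against GNPs, with fewer genes tested. Without dim probe sets no member (0) was higher in either comparison, since ALDH1L2 had no other. GNPs-HDM2 replicate 3 alone, chosen after seeing the data, gave 3 members higher, 2 lower and 5166 genes called against Control, and turned SHMT2 to 0.61 and CTH to 0.17 against Control and SHMT2 to 0.12 against GNPs.

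Leaving out each array in turn gave 2 to 5 members lower and 6524 (without Control replicate 3) to 14045 genes called against Control. PHGDH ran from -0.28 to 0.28, SHMT2 from -0.92 to 0.0166 and CTH from -0.48 to 0.0382. The count of members whose GNPs arrays all lay above Control arrays stayed at 7 with each GNPs or Control array left out. Leaving out an array cannot undo such a separation, so the count could only stay or grow and nothing is read from it. The replicate block gave 1 member higher and 4 lower against Control, with 10443 genes called, and changed no member's call there. Against GNPs, where same-numbered deviations correlated at -0.06, 0.10 and 0.01, the replicate block brought SHMT2 past the threshold (-0.90, adjusted p = 0.0308), as did trend and robust settings (adjusted p = 0.0311), array weights (adjusted p = 0.0384), quantile normalization (-0.73, adjusted p = 0.0304), median centring (-1.07, adjusted p = 0.0476) and leaving out GNPs-HDM2 replicate 3 (-1.40, adjusted p = 0.000126).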
